A study of Mus musculus with 6 samples.

Results

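The heat shock chaperones described here were 9 genes picked by symbol, Hspa1a, Hspa1b, Dnajb1, Hsph1, Hspb1, Hspa8, Hsp90aa1, Hsp90ab1 and Hspa5, out of 32285 genes listed for 2 libraries of mouse brain. Chaperones hold other proteins in a foldable state. HSP70 proteins (Hspa genes) bind unfolded stretches in a cycle of ATP use, J-domain proteins such as Dnajb1 start that cycle, Hsph1 (HSP110) exchanges the nucleotide that ends it, HSP90 proteins finish the folding of kinases and receptors, and small heat shock proteins such as Hspb1 hold unfolded clients without ATP. When unfolded protein builds up in the cytosol, the factor HSF1 binds repeats of the unit nGAAn in promoters and induces Hspa1a, Hspa1b, Dnajb1, Hsph1 and Hspb1 from a low level, whereas Hspa8 and Hsp90ab1 are made at all times. Hspa5 (BiP) is the HSP70 of the endoplasmic reticulum and answers to the unfolded protein response in place of HSF1. In brain, neurons are known for a weak induction of the Hspa1 pair, and glia for a strong one.

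Both libraries were 10x Multiome libraries, which give RNA and open chromatin from the same nucleus, made from brain of C57BL/6J mice. The study describes tumors in the Foxr2 p53LOF mice and lesions without proliferation in the Foxr2 alone mice. Progenitors of the ganglionic eminence were electroporated in utero with piggyBac vectors for Foxr2 and for Akaluc, each joined to GFP and driven by the CAG promoter, with a transposase helper. The Foxr2 alone group received these, and the Foxr2 p53LOF group received in addition a Cas9 plasmid with a guide against Trp53. The study also lists a Cas9 plasmid with a control guide, and whether the Foxr2 alone animals carried it is not given in the sources used here. The animals were taken once they showed neurologic signs, and their age is not given in the sources used here. Electroporation reaches some cells of the brain, so the tissue also held host cells without the vectors, and Foxr2 was set by the CAG promoter and not by its own. The counts of 1 library of each genotype were analysed here, so differences between them are given without a spread between animals and without a test. The counts of a second Foxr2 alone library were not analysed here, and only its peak list was used.

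After limits on nuclei and removal of predicted doublets, 8265 Foxr2 p53LOF nuclei with 59081870 RNA molecules (unique molecular identifiers, UMIs) and 8396 Foxr2 alone nuclei with 40190116 UMIs remained. The median was 5500 and 3710.5 UMIs per nucleus. Levels (CPM) are UMIs of a gene per 1000000 UMIs summed over a class, with exact 95% Poisson intervals in brackets, and all intervals cover counting error only. Classes were built without the 9 genes and named from marker lists, for example 2234 and 4263 neuron-like nuclei, 1529 and 3009 oligodendrocyte-like, 1850 and 461 immune-like, and 131 and 453 astrocyte-like nuclei in Foxr2 p53LOF and Foxr2 alone. COP-like nuclei, named for committed oligodendrocyte precursors (913), and nuclei with both astrocyte and OPC (oligodendrocyte precursor cell) markers, called mixed glia-like (1150), were found almost wholly in Foxr2 p53LOF. A further 288 Foxr2 p53LOF nuclei, led by Pomc and Oacyl, stayed unnamed because their median of 1442.5 UMIs was far under that of their library and no marker of the best scoring class, COP-like, was among their leading genes. Over all kept nuclei Foxr2 RNA was at 42.5 and 3.56 CPM and GFP at 324 and 29.4 CPM in Foxr2 p53LOF and Foxr2 alone, and Trp53 RNA at 33.4 and 13.0 CPM, which does not check the edit, since a small Cas9 edit need not lower RNA. Neuron-like, oligodendrocyte-like, astrocyte-like and immune-like nuclei of the 2 libraries lay almost wholly in different clusters, with at most 33 nuclei of a class, the neuron-like nuclei of Foxr2 alone, in a cluster that the other library led, and 94 barcodes were shared between the kept nuclei of both libraries.

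The promoters of Hspa1a, Hspa1b, Hspb1 and Hsph1 carry the letters by which HSF1 is known, and they are shown because these genes were found together in single nuclei below. RefSeq (mm10) gave a promoter for 6 of the 9 genes. Within 250 bases before and 50 after the start, both strands were searched for a pair of nGAAn units in either arrangement, GAANNTTC or TTCNNGAA, which can overlap each other. Of all 32851 promoters of 300 bases, 15.1% held such a pair, and 4 of the 6 genes did. Capitals mark the pairs in these bases upstream of the start, written 5′ to 3′ on the strand of the gene.
Hspa1a, chr17:34972157-34972356, minus strand: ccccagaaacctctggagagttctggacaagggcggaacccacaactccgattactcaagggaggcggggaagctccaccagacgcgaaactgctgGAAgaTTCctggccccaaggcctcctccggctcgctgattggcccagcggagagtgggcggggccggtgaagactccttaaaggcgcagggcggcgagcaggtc
Hspa1b, chr17:34959239-34959438, minus strand: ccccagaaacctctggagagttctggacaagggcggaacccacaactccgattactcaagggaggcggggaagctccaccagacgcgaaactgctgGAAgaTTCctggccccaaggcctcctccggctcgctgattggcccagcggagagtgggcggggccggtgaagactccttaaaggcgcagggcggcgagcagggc
Hspb1, chr5:135887719-135887918, plus strand: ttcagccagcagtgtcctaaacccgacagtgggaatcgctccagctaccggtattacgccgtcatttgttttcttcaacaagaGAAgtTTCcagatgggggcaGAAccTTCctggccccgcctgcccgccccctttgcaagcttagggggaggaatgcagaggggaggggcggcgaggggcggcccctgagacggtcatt
Hsph1, chr5:149636316-149636515, minus strand: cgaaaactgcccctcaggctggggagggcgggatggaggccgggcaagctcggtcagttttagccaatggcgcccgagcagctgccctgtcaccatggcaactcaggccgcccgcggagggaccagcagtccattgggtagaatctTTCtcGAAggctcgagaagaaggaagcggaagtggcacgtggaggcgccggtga

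The Hspa1a and Hspa1b stretches were identical at 199 of 200 bases, and each had its pair of units at -104 from the start. Hspb1 had 2 pairs, at -117 and -97. Hsph1, which has 2 RefSeq starts, had the pair shown at -54 from the start used here and a run of 3 units past the start, an arrangement found in 0.603% of all promoters. Neither of the 2 entries for Dnajb1 held a pair. Hspa5 held an endoplasmic reticulum stress element (ERSE: CCAAT, 9 bases, CCACG), the site through which ATF6 is known to act, which 0.119% of all promoters held. It is shown with the ERSE in capitals.
Hspa5, chr2:34771890-34772089, plus strand: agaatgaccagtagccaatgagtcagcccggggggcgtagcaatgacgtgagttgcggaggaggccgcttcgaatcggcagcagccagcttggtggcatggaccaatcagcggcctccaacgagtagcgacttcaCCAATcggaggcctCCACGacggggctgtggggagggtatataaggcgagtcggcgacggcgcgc

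These matches describe letters and not bound sites. Hspa1a (ENSMUSG00000091971, chr17:34969190-34972156) and Hspa1b (ENSMUSG00000090877, chr17:34956436-34959238) are neighbours on the minus strand, each with 1 exon. Reads can be hard to split between them: 58.8% of the 50-base windows of Hspa1a also occurred in Hspa1b, but none of those in its last 500 bases, the end that 3′ libraries read most. Hspa1l starts 547 bases from the start of Hspa1a on the other strand.

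The Hspa1 pair was held by very few nuclei of the Foxr2 p53LOF library. Of 955 UMIs of Hspa1a and Hspa1b there, 168 nuclei held all, and 39 nuclei with 5 or more UMIs held 759. These 39 were 0.472% of 8265 nuclei (0.336 to 0.645, exact binomial). In Foxr2 alone, 115 UMIs lay in 112 nuclei, no nucleus held more than 2, and 0 of 8396 nuclei reached 5. A floor of 3 nuclei would be a share of 0.0357%. The clusters that held the 39 had few Foxr2 alone nuclei, at most 11, in the cluster led by S100a8. Library and cell type thus cannot be told apart here. The limit of 5 was chosen after the values were seen. It changes little which library held such nuclei: in Foxr2 p53LOF 80 nuclei had 2 or more, 57 had 3 or more, 24 had 10 or more and 8 had 20 or more, against 3, 0, 0 and 0 nuclei in Foxr2 alone. Before any limit on nuclei, 51 of 10379 barcodes of Foxr2 p53LOF and 0 of 10096 of Foxr2 alone reached 5.

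**Figure D1:**
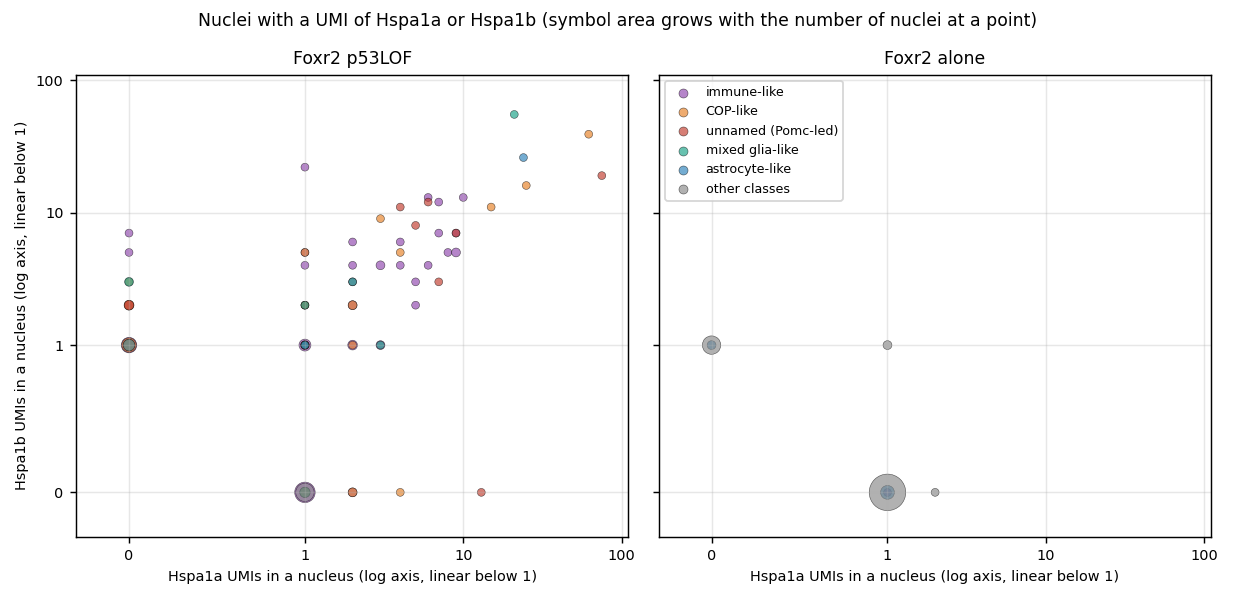
UMIs of Hspa1a and Hspa1b together in single nuclei, by library. Foxr2 p53LOF nuclei reach 101 UMIs, while no Foxr2 alone nucleus passes 2.

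Most nuclei rich in the pair were immune-like, and none was neuron-like. By class, 23 of 1850 immune-like nuclei (1.24%, 0.790 to 1.86) reached 5 UMIs, 7 of 288 Pomc-led nuclei (2.43%, 0.983 to 4.94), 6 of 913 COP-like nuclei (0.657%, 0.242 to 1.42), 2 of 1150 mixed glia-like nuclei and 1 of 131 astrocyte-like nuclei. None of 2234 neuron-like or 1529 oligodendrocyte-like nuclei did, although neuron-like nuclei were the deepest, with a median of 9924.5 UMIs. The neuron-like nuclei held 17 UMIs of the pair in 17 nuclei. The 39 nuclei had between 1465 and 24251 UMIs, with a median of 4222, so they were not the deepest nuclei of the library. Both genes were found in 36 of the 39, and Hspa1b was the higher in 23 and Hspa1a in 14. A UMI of the vector's GFP was in 21 of the 39, beside 58.2% of all nuclei of the library (57.1 to 59.3). These shares mix classes: the rich nuclei without GFP were almost all immune-like, and most rich immune-like nuclei had none. Of all immune-like nuclei 45.4% held GFP, and of all COP-like nuclei 88.8%.

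Single nuclei show how far this went. The nucleus with most, COP-like with 19251 UMIs, held 62 UMIs of Hspa1a, 39 of Hspa1b, 21 of Hsph1 and 184 of Hsp90aa1. A Pomc-led nucleus of 4856 UMIs held 75 of Hspa1a, 19 of Hspa1b and 26 of Hsph1. The astrocyte-like nucleus of 8166 UMIs had 24 and 26 UMIs of the pair but none of Hsph1, so the other inducible genes did not always go with them. An immune-like nucleus of 4610 UMIs held 10 of Hspa1a, 13 of Hspa1b and 27 of Hsph1, and no GFP. At the limit itself, the last nuclei inside held 5 UMIs of the pair, and the 18 nuclei just outside, with 3 or 4, held 62 UMIs between them.

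The other chaperones were higher in the same 39 nuclei than in the remaining nuclei of their clusters, Hspb1 and Hsph1 by the most. Expected UMIs were summed from each nucleus's cluster and depth. Hsph1, the HSP110 nucleotide exchange factor, had 245 UMIs in 25 of the nuclei, 24.7-fold the expected number (21.7 to 28.0). Hspb1 had 10 UMIs, 25.8-fold (12.4 to 47.4), and Dnajb1, the J-domain partner of HSP70, 13 UMIs, 7.78-fold (4.14 to 13.3). These 2 folds rest on few UMIs. Hsp90aa1, the stress-induced HSP90, was 7.89-fold the expected number (7.26 to 8.56), and 5.37-fold without the nucleus that held most of it. The genes made at all times moved less: Hspa8 was 2.62-fold (2.23 to 3.06), Hsp90ab1 2.54-fold (2.27 to 2.84), and Hspa5 of the endoplasmic reticulum 3.72-fold (3.25 to 4.23). All 5 of the 7 other genes that had an expected count of 3 or more were past 2-fold, beside 5.55% of 9813 genes past 2-fold higher and 16.9% past 2-fold lower in these nuclei.

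**Figure D2:**
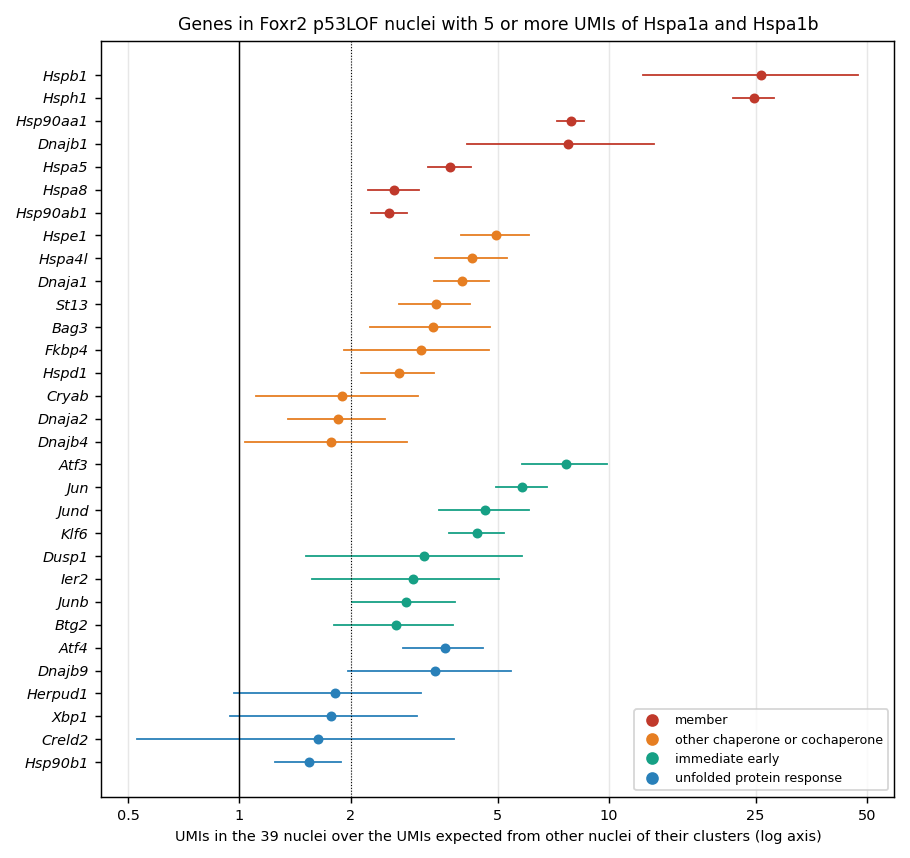
Observed over expected UMIs of the other 7 chaperones in the 39 nuclei rich in the Hspa1 pair, on a log axis, with exact 95% Poisson intervals. Hsph1 and Hspb1 lie near 25-fold, Hsp90ab1 and Hspa8 between 2.5-fold and 2.7-fold.

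Other members of the chaperone system were read in the same nuclei from lists of genes. Of 49 other cytosolic and mitochondrial chaperones and cochaperones, 35 had an expected count of 3 or more, 7 of these were past 2-fold higher and 1 lower, beside the 5.55% and 16.9% of all genes, and the median was 1.46-fold. The 7 were Hspe1 (4.95-fold), the cofactor of the mitochondrial chaperonin, its partner Hspd1 (2.70-fold), the HSP110 gene Hspa4l (4.26-fold, 2.96-fold without its richest nucleus), the J-domain gene Dnaja1 (4.01-fold), the HSP70 cofactor St13 (3.40-fold), the HSP70 nucleotide exchange factor Bag3 (3.35-fold) and the HSP90 cochaperone Fkbp4 (3.10-fold). Hspa4, the constitutive HSP110 gene, stood at 0.918-fold. Of 20 unfolded protein response genes with enough expected UMIs, 2 were past 2-fold higher, Atf4 (3.59-fold) and Dnajb9 (3.39-fold), and 1 was lower, Pdia4 (0.334-fold, 3 UMIs), a protein disulfide isomerase, while the resident HSP90 of that compartment, Hsp90b1, was at 1.54-fold. Immediate early genes, which mark acute stimulation and also dissociation stress, were past 2-fold higher in 10 of 13, with a median of 2.82-fold, among them Atf3 (7.66-fold) and Jun (5.83-fold). The heat shock factor genes themselves were not higher: Hsf1 had 3 UMIs (0.380-fold) and Hsf2 was at 1.26-fold.

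Against the other nuclei of the same clusters, these nuclei had a like mitochondrial share and somewhat higher ribosomal protein and Malat1 shares. The mitochondrial share was 0.618% against 0.602%, the ribosomal protein share 3.05% against 2.44%, and the share of Malat1, a nuclear RNA, 2.78% against 2.08%. Their part in the result was not tested.

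The order of the Hspa1 pair over classes followed these few nuclei. In Foxr2 p53LOF, Hspa1a was highest in the Pomc-led nuclei at 193 CPM (160 to 230), then in astrocyte-like nuclei at 34.2 CPM (22.1 to 50.5), immune-like at 20.9 (17.8 to 24.5), COP-like at 12.5 (10.47 to 14.9), endothelial-like at 6.88 from 2 UMIs (0.833 to 24.8) and mixed glia-like at 3.05 (2.09 to 4.31). The astrocyte-like and immune-like intervals overlapped. Oligodendrocyte-like nuclei had 0.980 CPM and neuron-like nuclei 0.482 CPM (0.249 to 0.842), which also overlapped, and OPC-like nuclei had no UMI. Hspa1b had the same leading classes, with 112 CPM (87.5 to 141) in Pomc-led, 36.9 (24.3 to 53.7) in astrocyte-like and 24.9 (21.4 to 28.8) in immune-like nuclei, and 0.201 CPM (0.0652 to 0.469) in neuron-like nuclei. Without the 39 nuclei, immune-like nuclei stood at 6.91 CPM of Hspa1a and 4.56 of Hspa1b, COP-like at 1.86 and 2.64, astrocyte-like at 1.38 and 1.38, and Pomc-led nuclei at 8.17 and 19.6. Mixed glia-like nuclei stood at 0.862 and 1.44 CPM without them, as 1 nucleus had held 21 of 32 Hspa1a and 55 of 73 Hspa1b UMIs. The immune-like, COP-like and Pomc-led levels thus stayed above the neuron-like ones, the Pomc-led ones from 5 and 12 UMIs. The astrocyte-like levels rested on 1 nucleus, and the mixed glia-like levels largely did so.

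**Figure D3:**
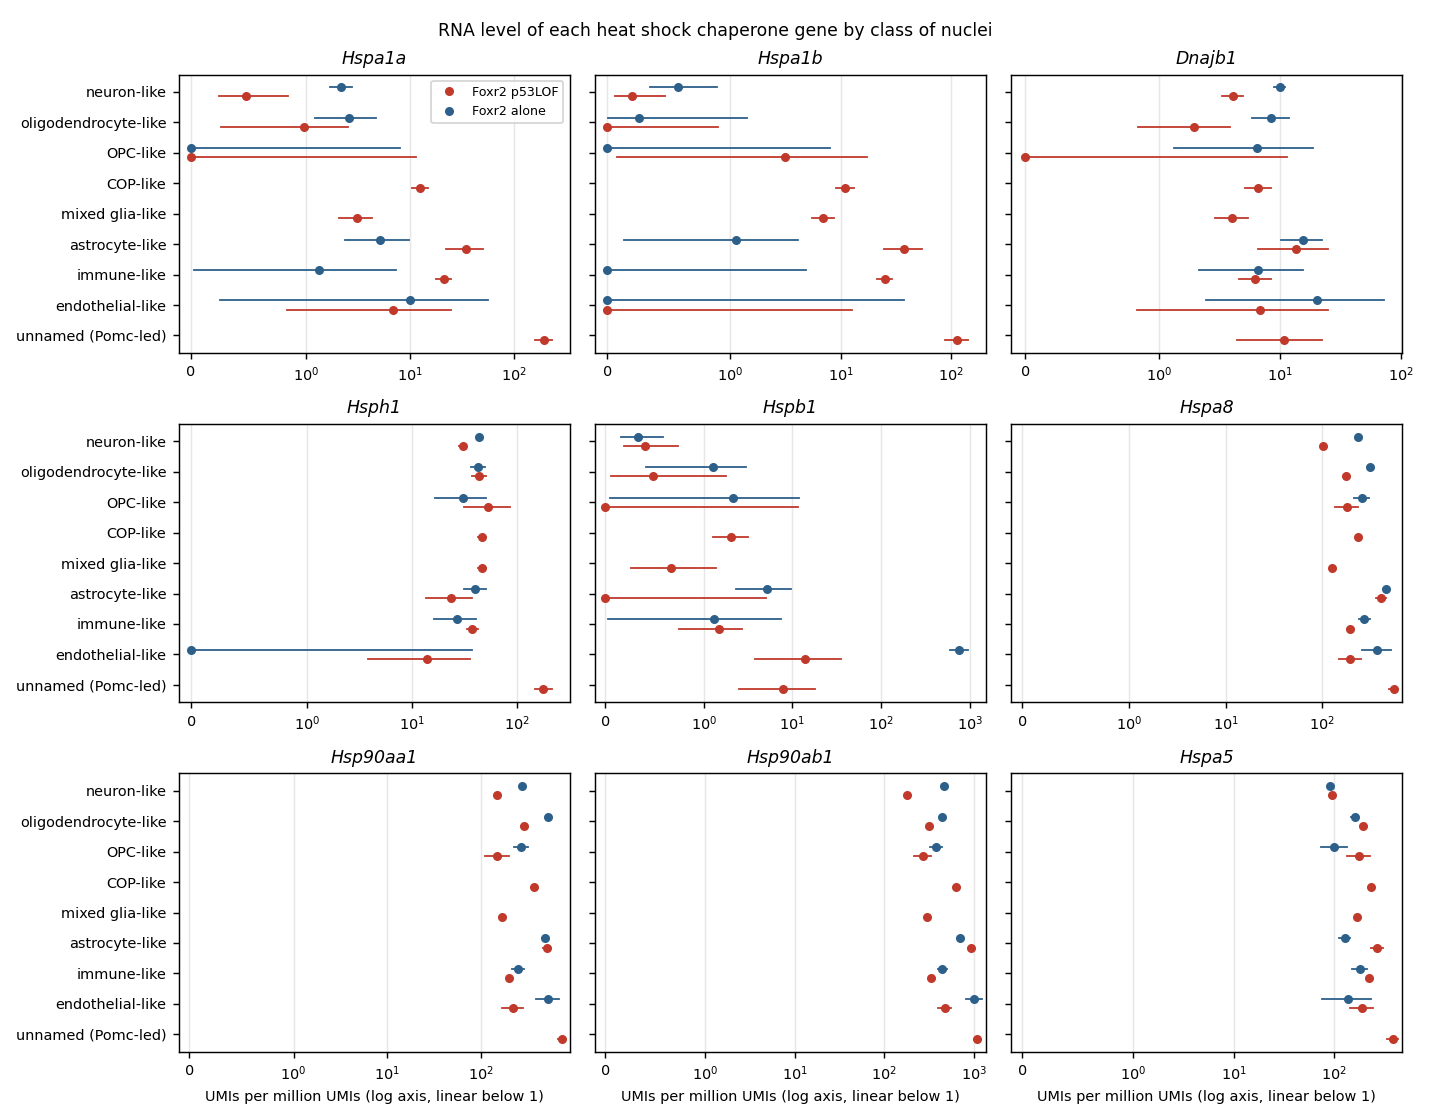
Level of each of the 9 chaperones in CPM by class and library on a log axis, with exact 95% Poisson intervals. Hspa1a and Hspa1b span the widest range over the Foxr2 p53LOF classes, and Hspb1 stands out in the endothelial-like nuclei of Foxr2 alone.

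Among immune-like nuclei the pair was unevenly spread over clusters. The cluster led by S100a8, S100a9 and Mmp12 (954 Foxr2 p53LOF nuclei) had 35.6 CPM of Hspa1a (29.8 to 42.3), 40.3 of Hspa1b (34.0 to 47.4) and 49.1 of Hsph1 (42.1 to 56.8). The cluster led by Siglech, Gpr34 and P2ry12, genes of resident microglia (507 nuclei), had 1.26 (0.153 to 4.56), 0.631 (0.0160 to 3.52) and 15.1 CPM (9.70 to 22.5). Hsp90ab1 differed less between the 2 clusters, at 335 CPM (317 to 355) and 272 CPM (247 to 299).

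In Foxr2 alone, where no nucleus was rich in the pair, Hspa1a stood at low levels: 2.17 CPM (1.70 to 2.73) in neuron-like, 2.56 (1.23 to 4.72) in oligodendrocyte-like, 5.11 (2.34 to 9.71) in astrocyte-like and 1.32 (0.0334 to 7.35) in immune-like nuclei. These intervals overlapped, but they were wide where UMIs were few, so an even spread is not shown. OPC-like nuclei had no UMI of the pair, and endothelial-like nuclei had 1. Hspa1b had 22 UMIs in the whole library. Thinned to 1000 UMIs per nucleus, 2.10% of immune-like nuclei of Foxr2 p53LOF (38 of 1813, 1.49 to 2.87; 37 shallower nuclei left out) held a UMI of Hspa1a, against 0.315% (1 of 317, 0.00799 to 1.74; 144 left out) in Foxr2 alone. Unthinned, these shares were 3.24% and 0.217%, at median depths of 2699 and 1174 UMIs. In neuron-like nuclei, which had next to none in Foxr2 p53LOF, the thinned shares were 0.0448% and 0.212%, at median depths of 9924.5 and 7304 UMIs. No class was known to lack the gene, so the share that free RNA gives could not be set.

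The share of UMIs held by the richest 1% of nuclei depends in part on how many UMIs a gene has, and does not set the libraries apart for the pair or Hspb1. In Foxr2 p53LOF the 83 nuclei with most of a gene held 92.7% of Hspa1a and 94.1% of Hspa1b UMIs, 35.9% of Dnajb1, 21.9% of Hsph1, 13.9% of Hspa5, 12.9% of Hsp90aa1, 11.9% of Hsp90ab1 and 9.86% of Hspa8, while 83 nuclei chosen by depth held 4.15% of all UMIs. In Foxr2 alone, the 84 richest nuclei held 91.4% of Hspa1a, 100% of Hspa1b, 27.1% of Dnajb1, 13.2% of Hsph1, 9.19% of Hspa5, 7.68% of Hsp90aa1, 7.72% of Hsp90ab1 and 7.79% of Hspa8 UMIs, against 3.44% of all UMIs. Hspb1 was at 100% in both libraries. The shares of the pair were thus close in the 2 libraries. In Foxr2 alone a high share follows from the low count, as Hspa1a had 93 UMIs in 92 nuclei. This does not hold in Foxr2 p53LOF, where Hspa1a had 482 UMIs in 118 nuclei. Dnajb1, at 35.9%, had only 284 UMIs there, in 265 nuclei. Hsph1, Hspa5 and the abundant genes had the higher share in Foxr2 p53LOF.

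Dnajb1 and Hsph1, the partners of HSP70, varied less over classes than the pair. In Foxr2 p53LOF, Dnajb1 (chr8:83608193-83612653, plus strand) ranged from 1.96 CPM (0.846 to 3.86) in oligodendrocyte-like to 13.7 CPM (6.56 to 25.2) in astrocyte-like nuclei, and OPC-like nuclei had no UMI (up to 11.5 CPM). The immune-like level of 6.26 CPM (4.58 to 8.34) overlapped both COP-like at 6.61 (5.13 to 8.38) and neuron-like nuclei at 4.06 (3.31 to 4.93), and the last 2 did not overlap each other. In Foxr2 alone it ran from 6.46 CPM in OPC-like to 15.3 CPM (10.1 to 22.3) in astrocyte-like nuclei, apart from 2 UMIs in endothelial-like nuclei. Hsph1 (chr5:149614287-149636376, minus strand, 19 exons in its longest coding transcript) was highest in the Pomc-led nuclei at 177 CPM (146 to 213). The other classes of Foxr2 p53LOF lay between 13.8 CPM, from 4 endothelial-like UMIs, and 53 CPM in OPC-like nuclei (30.9 to 84.8), with neuron-like nuclei at 30.1 (28.0 to 32.4) and COP-like at 46.4 (42.3 to 50.7).

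Hspb1 (chr5:135887919-135889563, plus strand), the small heat shock protein HSP27, lay mostly in endothelial-like nuclei in Foxr2 alone, but not in Foxr2 p53LOF. In the 32 endothelial-like nuclei of Foxr2 alone it reached 751 CPM (591 to 941), from 75 UMIs in 13 nuclei. A single nucleus held 28 of these, and without it the level was 492 CPM. Its next level in that library was 5.11 CPM (2.34 to 9.71), in astrocyte-like nuclei. The 77 endothelial-like nuclei of Foxr2 p53LOF had 4 of the 60 UMIs of that library, 13.8 CPM (3.75 to 35.2). That interval included the 7.77 CPM of the Pomc-led nuclei (5 UMIs), and COP-like nuclei held 21 UMIs. The cluster that the endothelial-like nuclei of both libraries shared also carried markers of mural cells and fibroblasts. In barcodes outside the limits on nuclei, Foxr2 p53LOF held 79 Hspb1 UMIs, 27 of them in 1 barcode.

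The 3 abundant cytosolic chaperones shared an order in Foxr2 p53LOF, with Pomc-led and astrocyte-like nuclei at the top and neuron-like nuclei at or near the bottom. Hspa8 (chr9:40800984-40810087, plus strand), the constitutive HSP70, was at 551 CPM (496 to 612) in Pomc-led, 410 (365 to 460) in astrocyte-like, 234 (225 to 243) in COP-like, 194 (185 to 205) in immune-like, 126 (119 to 133) in mixed glia-like and 102 (98.2 to 106) in neuron-like nuclei. Hsp90aa1 (chr12:110690605-110702728, minus strand) ranged from 148 CPM (144 to 153) in neuron-like to 736 (672 to 806) in Pomc-led nuclei. Hsp90ab1 (chr17:45567775-45573271, minus strand), the constitutive HSP90, ranged from 177 CPM (172 to 182) to 1075 (996 to 1158) in the same classes and stood at 631 (616 to 647) in COP-like nuclei. COP-like nuclei carried more of all 3 than mixed glia-like nuclei, the other large class with much GFP (667 and 586 CPM of GFP). The mitochondrial share of COP-like and mixed glia-like nuclei was 0.815% and 0.307%, and the ribosomal protein share 1.92% and 1.12%. The part of these was not tested.

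In Foxr2 alone, neuron-like nuclei had the lowest Hspa8 and oligodendrocyte-like nuclei more Hsp90aa1 than neuron-like ones. Hspa8 ranged from 233 CPM (227 to 238) in neuron-like to 460 (429 to 493) in astrocyte-like nuclei. Hsp90aa1 was at 274 CPM (269 to 280) in neuron-like, 485 (453 to 518) in astrocyte-like and 526 (504 to 550) in oligodendrocyte-like nuclei, and the last 2 intervals overlapped. Hsp90ab1 did not follow this order, with 463 CPM (456 to 470) in neuron-like, 441 (421 to 463) in oligodendrocyte-like and 692 (654 to 732) in astrocyte-like nuclei.

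Hspa5 (chr2:34771970-34777547, plus strand), the BiP of the endoplasmic reticulum, had its lowest value in neuron-like nuclei of both libraries, at 95.7 CPM (91.9 to 99.6) and 92.9 CPM (89.6 to 96.2). In Foxr2 p53LOF it stood at 390 CPM (343 to 441) in Pomc-led, 271 (234 to 311) in astrocyte-like, 235 (226 to 245) in COP-like and 228 (217 to 239) in immune-like nuclei, where the last 3 overlapped. In Foxr2 alone, immune-like (182, 153 to 215) and oligodendrocyte-like nuclei (162, 150 to 175) overlapped, and both lay above astrocyte-like (130, 113 to 148) and neuron-like nuclei. OPC-like nuclei (101, 74.4 to 135) overlapped the astrocyte-like and neuron-like ones, and the endothelial-like interval (140, 76.6 to 235, 14 UMIs) overlapped those of all other classes.

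Between genotypes, most cytosolic chaperones of neuron-like nuclei were lower in the Foxr2 p53LOF library, and Hspa5 of the endoplasmic reticulum was not. Values are log2 ratios of CPM, Foxr2 p53LOF over Foxr2 alone, and a gene is counted past 2-fold without a test. In neuron-like nuclei, 5 of 9 genes were past 2-fold lower and none higher, beside 19% lower and 13.4% higher of the 10607 genes at 10 CPM or more in either library. Hspa1a stood at -2.17 (-3.19 to -1.28, 12 against 72 UMIs), Hsp90ab1 at -1.39 (-1.43 to -1.34), Dnajb1 at -1.29 (-1.62 to -0.96) and Hspa8 at -1.19 (-1.25 to -1.12). Hspa1b also counted, at -1.51 from 5 against 19 UMIs, while Hsp90aa1 was at -0.88 and Hsph1 at -0.52. Hspa5 was at 0.04 (-0.03 to 0.12). At that minimum 2 of 5 members counted, Hspa8 and Hsp90ab1, and with predicted doublets kept 3 did. The median of the 9 genes was -1.19, beside -0.05 over all genes tested. The neuron-like nuclei of the 2 libraries came almost wholly from different clusters, led by other regional genes, so genotype, brain region and library cannot be told apart. Their ribosomal protein share was 0.678% and 1.24%, and their Malat1 share 2.20% and 5.12%, in Foxr2 p53LOF and Foxr2 alone, and the part of these in the ratios was not tested.

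In oligodendrocyte-like nuclei 3 of 8 genes with a value were past 2-fold lower, beside 21% of 9741 genes lower and 13.1% higher, and none was higher. At 10 CPM or more none of 5 members counted. The 3 were counted from few UMIs: Dnajb1 at -2.11 (-3.44 to -0.97, 8 against 33 UMIs), Hspa1a at -1.39 (-3.51 to 0.41) and Hspb1 at -1.39 (-4.78 to 1.22). The abundant genes were lower by less than 2-fold, Hsp90aa1 at -0.88 (-0.98 to -0.77), Hspa8 at -0.83 and Hsp90ab1 at -0.49, while Hspa5 was at 0.29 (0.14 to 0.44) and Hsph1 at 0.02. The ribosomal protein share of these nuclei was 1.33% and 2.43%, the Malat1 share 3.68% and 4.999% and the median depth 2448 and 1170 UMIs in Foxr2 p53LOF and Foxr2 alone, and their part in the ratios was not tested.

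In immune-like nuclei the Hspa1 pair was past 2-fold higher in Foxr2 p53LOF. Hspa1a had 154 UMIs against 1, a log2 ratio of 3.99 (1.49 to 9.30), and Hspa1b 183 UMIs against 0, at least 6.29-fold higher. At 10 CPM or more these were 2 of 7 members past 2-fold higher, beside 15.3% of 11489 genes, and none was lower, beside 23.8%. The ratio rested on few nuclei: without those rich in the pair Hspa1a was at 2.39 (-0.15 to 7.72) and Hspa1b had 33 UMIs against 0. With its nuclei rich in the pair included, the S100a8-led cluster of Foxr2 p53LOF stood at 35.6 CPM of Hspa1a (29.8 to 42.3). It lay above the immune-like nuclei of Foxr2 alone at 1.32 CPM (0.0334 to 7.35, 1 UMI). The microglial cluster, at 1.26 CPM (0.153 to 4.56, 2 UMIs), had an interval that overlapped that of these Foxr2 alone nuclei. The abundant genes went the other way at less than 2-fold, Hspa8 at -0.50 (-0.71 to -0.28), Hsp90ab1 at -0.44 (-0.60 to -0.27) and Hsp90aa1 at -0.31. Hspa5 was at 0.33 (0.08 to 0.59), and the Hsph1 and Dnajb1 intervals included 0. The ribosomal protein share was 2.00% and 3.81%, the Malat1 share 1.79% and 2.59% and the median depth 2699 and 1174 UMIs in Foxr2 p53LOF and Foxr2 alone, and their part was not tested.

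In astrocyte-like nuclei 3 of 8 genes were past 2-fold higher, beside 15.3% of 11396 genes higher and 19.9% lower, but single nuclei decided all 3. Hspa1a stood at 2.74 (25 against 9 UMIs) and Hspa1b at 5.02 (27 against 2). Without the nucleus with most UMIs of the gene Hspa1a was at -1.72 (-7.19 to 1.18), an interval that included 0. Hspa5 was at 1.06 (0.78 to 1.35) and at 0.75 without its richest nucleus, which held 43 of 198 UMIs. Hspb1 had no UMI against 9, at least 1.25-fold lower. Hsp90ab1 was higher by less than 2-fold at 0.40 (0.26 to 0.54), while Hspa8 and Hsp90aa1 had intervals that included 0. The ribosomal protein share was 3.23% and 3.19%, the Malat1 share 2.13% and 5.09% and the median depth 4066 and 2719 UMIs, and their part was not tested.

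Between genotypes, the share of the other chaperones past 2-fold lay below that of all genes in the 4 classes. That of immediate early genes lay above it in at least 1 direction in each class, furthest for higher genes in astrocyte-like nuclei. Both are descriptions without a test. Of the 49 other chaperones, those at 10 CPM or more numbered 37 in neuron-like, 38 in oligodendrocyte-like, 42 in astrocyte-like and 39 in immune-like nuclei. In each class 6 of them were past 2-fold lower, which is 16.2%, 15.8%, 14.3% and 15.4% beside 19%, 21%, 19.9% and 23.8% of all genes, with Hspa2, an HSP70 gene of testis and brain, and Bag5, an HSP70 cofactor, among them in neuron-like (-3.50 and -2.77), oligodendrocyte-like (-2.33 and -2.26) and immune-like nuclei (-2.03 and -2.93), and Hspa2 in astrocyte-like nuclei (-1.65). In astrocyte-like nuclei 2 genes were past 2-fold higher, and in the other 3 classes none was. The median was -0.51 in neuron-like and -0.41 in oligodendrocyte-like nuclei, and -0.05 and -0.15 in astrocyte-like and immune-like nuclei. Hsf1 stood at 0.73 in neuron-like, -0.45 in oligodendrocyte-like, -0.95 (-2.18 to 0.10) in astrocyte-like and 0.15 (-0.53 to 0.92) in immune-like nuclei. Hsf2, a second heat shock factor, was past 2-fold higher in oligodendrocyte-like nuclei at 1.07 (0.69 to 1.46), and at 0.23, 0.38 and 0.66 in neuron-like, astrocyte-like and immune-like nuclei. The unfolded protein response genes had medians from -0.16 in immune-like to 0.32 in astrocyte-like nuclei, with Manf, a secreted factor of that response, lower in all 4 classes (-2.04, -1.32, -1.30 and -1.33). Immediate early genes were past 2-fold higher in 8 of 14 (57.1%) and lower in 1 (7.14%) in astrocyte-like nuclei (Atf3 at 4.73), beside 15.3% and 19.9% of all genes. In immune-like nuclei 3 of 16 were higher (18.8%), near the 15.3% of all genes, and 7 lower (43.8%), beside 23.8%. Atf3 had 296 UMIs against 2 there. In oligodendrocyte-like nuclei 2 of 8 were higher and 2 lower (25% each), beside 13.1% and 21%. In neuron-like nuclei 1 of 8 was higher (12.5%) and 2 lower (25%), beside 13.4% and 19%.

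The level of several chaperones changed with the depth of a nucleus. Shallow nuclei had fewer than 2000 UMIs and deep ones 4000 or more. Among immune-like nuclei of Foxr2 p53LOF (463 shallow, 497 deep), 4 of 9 genes were past 2-fold higher in shallow nuclei, beside 5.5% of 10493 genes, and none was lower, beside 12.6%. At 10 CPM or more, the limit set for all genes, 3 of 8 members were higher. Hspa1b stood at 2.20 (1.65 to 2.74) and Hspa1a at 1.78 (1.16 to 2.38, 38 against 65 UMIs). Without the richest nucleus of the gene on each side, of which the shallow one held 22 Hspa1b UMIs, they were at 1.73 and 1.63, and without all nuclei rich in the pair at 0.81 (-1.69 to 2.77) and 2.93 (1.63 to 4.28), so the Hspa1b value rested on such nuclei. The others counted were Hspb1 at 3.88 from 5 against 2 UMIs and Dnajb1 at 1.03 (-0.34 to 2.24). Hspa8 at 0.96 (0.73 to 1.18), Hspa5 at 0.89, Hsp90aa1 at 0.79 and Hsp90ab1 at 0.72 were higher by less than 2-fold, and Hsph1 was at -0.43 (-1.20 to 0.27). From 1000 to 2000 UMIs up to 8000 UMIs or more, Hspa8 stood at 302, 225, 180 and 142 CPM and Hspa5 at 331, 263, 199 and 179 CPM. Hspa1a had no such order, with 53, 20.7, 30.3 and 5.61 CPM. Over the same bins the ribosomal protein share went from 3.10% to 1.41%, the mitochondrial share from 0.463% to 0.208%, and immediate early genes from 636 to 497 CPM, and Malat1 from 1.34% to 1.92%. Their part in the result was not tested. The immune-like class included a cluster of 78 nuclei with a median of 11413.5 UMIs. With minimums of 1000 genes and 1000 peak counts none of the 9 genes was past 2-fold higher in shallow nuclei and 1 was lower.

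**Figure D4:**
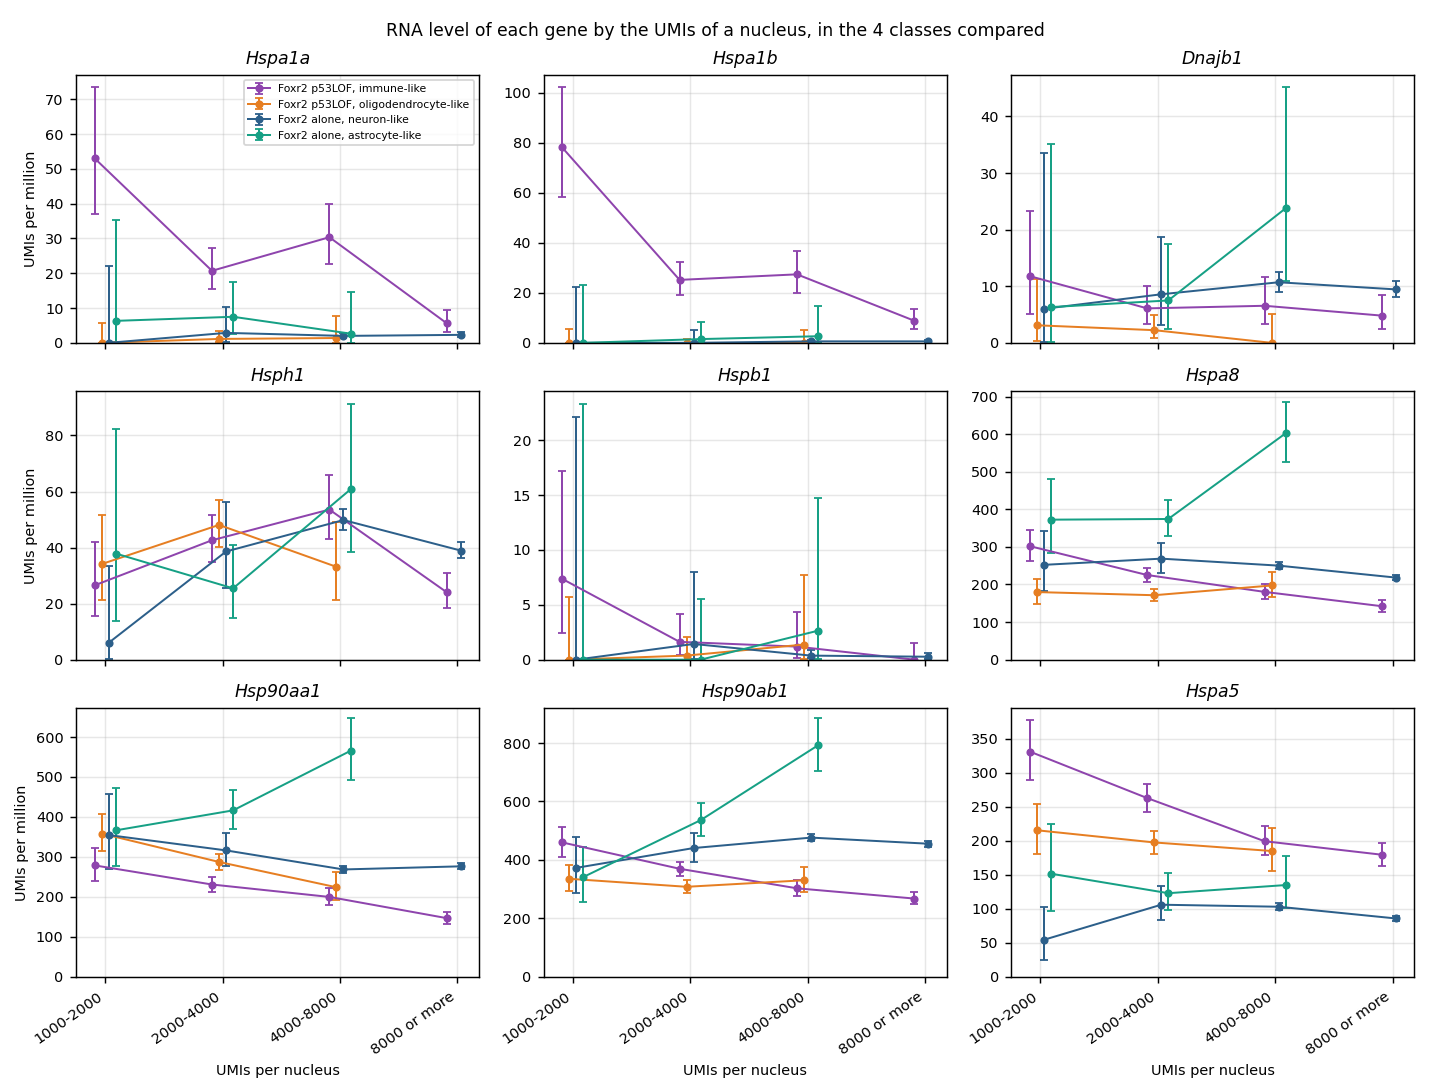
Level in CPM of the 9 chaperones by total UMIs per nucleus in classes of both libraries, with exact 95% Poisson intervals. In immune-like nuclei of Foxr2 p53LOF, Hspa8, Hsp90aa1, Hsp90ab1 and Hspa5 are lower from bin to bin.

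In the other classes with 50 nuclei on both sides the members did not share this direction. In oligodendrocyte-like nuclei of Foxr2 p53LOF (400 shallow, 147 deep), none was past 2-fold, beside 5.69% of 9133 genes higher and 5.95% lower, and Hsp90aa1 was at 0.70 (0.40 to 0.99). In neuron-like nuclei of Foxr2 alone (127 shallow, 3924 deep), Hsph1 was lower at -2.98 (-8.28 to -0.50, 1 against 1405 UMIs), beside 16.4% of 11160 genes lower, and none was higher, beside 19.7%. Hsp90aa1 was at 0.40 (0.02 to 0.75) there. In astrocyte-like nuclei of Foxr2 alone (92 shallow, 116 deep), Hsp90ab1 at -1.35 (-1.78 to -0.95) and Dnajb1 at -1.84 (1 against 21 UMIs) were lower, beside 21.7% of 11391 genes, and none was higher, beside 17.5%. From 1000 to 2000 up to 4000 to 8000 UMIs the mitochondrial share of these nuclei went from 0.334% to 1.08% and the ribosomal protein share from 2.39% to 4.13%, the other way than in immune-like nuclei, and their part was not tested. Hsp90aa1, with -0.61 (-1.02 to -0.21) in these astrocyte-like nuclei, thus had opposite signs in 2 classes of 1 library.

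The Pomc-led nuclei had higher levels of the chaperones as a whole. All 9 genes were past 2-fold higher than in the rest of Foxr2 p53LOF, beside 13.3% of 11224 genes higher and 33.4% lower. At 10 CPM or more, the limit set for all genes, 8 of 8 members were higher. Log2 ratios ran from 1.198 for Dnajb1 (-0.13 to 2.26, 7 UMIs) to 4.97 for Hspa1a (4.67 to 5.27), with Hspa1b at 4.03, Hspb1 at 3.04 from 5 UMIs, Hsph1 at 2.23, Hspa8 at 1.87, Hsp90aa1 at 1.80, Hsp90ab1 at 1.75 and Hspa5 at 1.28. Against COP-like nuclei, whose markers scored best in them, Hspa1a was at 3.94, Hspa8 at 1.24 (1.07 to 1.40), Hsp90aa1 at 0.98, Hsp90ab1 at 0.77 and Hspa5 at 0.73 (0.54 to 0.92). In that comparison 5 of 9 genes were past 2-fold higher and none lower, beside 12.6% of 10761 genes higher and 28.1% lower. At 10 CPM or more, 4 of 8 members were higher. The 7 of these nuclei that were rich in the pair made most of the Hspa1a level but not that of the abundant genes: without them Hspa1a was at 8.17 CPM, Hsph1 at 70.3, Hspa8 at 521, Hsp90aa1 at 593, Hsp90ab1 at 968 and Hspa5 at 379. By depth the pair stood highest at 4000 to 8000 UMIs, in 27 nuclei with 703 CPM of Hspa1a and 279 of Hspa1b, all of it in 5 nuclei rich in the pair. A single one of these held 75 of the 106 Hspa1a UMIs, and without it the level was 212 CPM. The 78 nuclei under 1000 UMIs had no Hspa1a UMI and 15.7 CPM of Hspa1b, both under the floor of 3 counts, so absence at that depth is not shown.

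These nuclei also had a mitochondrial share of 1.33% and a ribosomal protein share of 6.44%, against 0.333% and 1.28% over the whole library, immediate early genes at 1120 CPM and GFP at 1578 CPM, against 432 and 324 CPM. The part of these in the levels was not tested. Other chaperones went with the 9 genes, as 19 of 42 were past 2-fold higher and 2 lower, with a median of 0.98 beside -0.52 over all genes tested and with Hspa2 (3.06), Hspe1 (2.35) and the small heat shock gene Hspb8 (2.33) in front. Over COP-like nuclei 6 of 41 (14.6%) were past 2-fold higher, near the 12.6% of all genes. Of the unfolded protein response genes 5 of 20 were past 2-fold higher than in the rest and none lower, beside 13.3% and 33.4% of all genes, led by Ddit3 (1.92), the CHOP factor of prolonged endoplasmic reticulum stress. Over COP-like nuclei 2 of 20 were, beside 12.6%. Neither heat shock factor gene at 10 CPM or more was past 2-fold, and their median was -0.60.

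GFP is read from the vectors, and a GFP UMI is found more readily in a deep nucleus, so nuclei with and without one were compared within bins of depth in Foxr2 p53LOF. A UMI does not mark a carrier of the vectors there: 45.4% of immune-like (43.1 to 47.7) and 49.4% of endothelial-like nuclei (37.8 to 61.0), cell types of the host, held one at median depths of 2699 and 2452 UMIs, beside 36.2% of oligodendrocyte-like (33.8 to 38.6, 2448 UMIs), 51.7% of neuron-like (49.7 to 53.8), 88.8% of COP-like (86.6 to 90.8) and 92.1% of mixed glia-like nuclei (90.4 to 93.6). At 8000 UMIs or more (2116 with, 773 without), Hspa1b stood at 2.63 (1.72 to 3.72) and Hspa1a at 1.99 (1.18 to 2.93) on the log2 scale, and Hsp90ab1 at 1.08 (1.01 to 1.16). Hspa5 was at 0.73, Hsp90aa1 at 0.70, Hspa8 at 0.68 and Hsph1 at 0.40. At 1000 to 2000 UMIs (362 with, 638 without) the pair went the other way, with Hspa1b at -1.54 (-2.75 to -0.49) and Hspa1a at -0.89 (-2.15 to 0.22), while Hspa8 at 0.84 and Hsp90ab1 at 0.70 stayed higher with GFP. At 2000 to 4000 UMIs Hspa1a was at 0.63 (-0.06 to 1.34) and Hspa1b at 0.12 (-0.53 to 0.76). At 4000 to 8000 UMIs they were at 1.32 (0.78 to 1.90) and 0.53 (-0.04 to 1.13). At 1000 to 2000 UMIs and in the bins from 4000 UMIs up, the values of the pair rested on nuclei rich in it. At 4000 to 8000 UMIs, 9 such nuclei with GFP held 150 of 163 Hspa1a and 84 of 97 Hspa1b UMIs. In that bin, 5 such nuclei without GFP held 30 of 34 and 31 of 35. Without the richest nucleus of the gene on each side, Hspa1a was at 0.93 (0.27 to 1.65) there and Hspa1b at 0.88 (0.18 to 1.64). At 8000 UMIs or more, 8 such nuclei with GFP held 132 of 157 Hspa1a and 150 of 188 Hspa1b UMIs, and without nuclei rich in the pair Hspa1b was at 1.07 (-0.19 to 2.60) and Hspa1a at 0.24 (-1.01 to 1.69). At 1000 to 2000 UMIs, 6 such nuclei without GFP held 23 of 30 and 46 of 47 UMIs, and without them and the 1 with GFP the pair no longer went the other way, with Hspa1b at 3.16 from 5 against 1 UMIs and Hspa1a at 0.84 (-0.90 to 2.58). The mix of classes was not held equal in these bins. Within COP-like nuclei of 4000 to 8000 UMIs (264 with, 56 without), Hspa5 was at 1.13 (0.71 to 1.59), Hsp90aa1 at 1.12, Hsp90ab1 at 1.12 and Hspa8 at 0.997 (0.52 to 1.51). Within mixed glia-like nuclei of that depth (422 with, 55 without) Hsph1 was at 1.41 (0.25 to 2.89) and Hsp90aa1 at 0.58, and Hspa5 at -0.19 (-0.55 to 0.19).

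The genes most alike were sought by Pearson correlation of log2(CPM + 1) over 25 cluster profiles of both libraries among 15496 genes, as a description of profiles that share libraries and depth. Hspa1a was most like Pgk1 (0.888), Ranbp1 (0.865) and Hspa1b (0.861), and Hspa1b was most like Cks2 (0.882), Ldha (0.875) and Hist1h1d (0.873). The abundant genes were like each other, as Hspa8 led for Hsp90aa1 (0.919) and came after Eif5a and Eif3c for Hsp90ab1 (0.921). Hspa8 was most like Ubxn1 (0.954), Uqcrh (0.949) and Hspe1 (0.948). For Hspa5 the first was Hsp90b1 (0.916), the HSP90 of the same compartment. Dnajb1 was closest to Mea1 (0.842), Hsph1 to Pik3r2 (0.733) and Hspb1 to Heyl (0.817). The profiles left out the 32 endothelial-like nuclei of Foxr2 alone, where Hspb1 was high, so the Hspb1 value rests on few UMIs.

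Open chromatin at the promoters of the pair varied less than its RNA over the classes of Foxr2 p53LOF. In Foxr2 alone, where the RNA of the pair was low throughout, the highest promoter value of 5 classes was 3.53-fold the lowest for Hspa1a and 3.54-fold for Hspa1b. The share of counts in promoter peaks differed by class there, from 48.1% in neuron-like to 64.3% in immune-like nuclei. Scaled to the counts in all promoter peaks, the ranges were 2.64-fold and 3.43-fold. In Foxr2 p53LOF they were 2.62-fold and 3.16-fold on that scale. Each of the 9 genes had a peak over its start, as listed with the counts, in all 3 libraries, beside 52.5% of 32285 genes with one within 1000 bases in all 3. The peak over Hspa1a was chr17:34971891-34972799 in Foxr2 p53LOF and also covered the start of Hspa1l. For Hsp90aa1 the listed start and its peak, chr12:110695995-110696855, lay inside the gene model and not at its outer end. Scaled to CPM of the counts in peaks, Hspa1a was highest in immune-like nuclei of both libraries, 45.2 (41.7 to 48.9) in Foxr2 p53LOF and 52.3 (45.1 to 60.3) in Foxr2 alone, although its RNA there differed by 3.99 on the log2 scale. Hspa1b was at 36.7 (33.5 to 40.1) and 35.3 (29.4 to 42.0) in the same nuclei. In the Pomc-led nuclei, with the highest RNA of the pair, Hspa1a was at 24.4 (17.4 to 33.2) and Hspa1b at 18.3 (12.4 to 26.1), within the range of the other classes. Peaks were called for each library on its own, with widths of 909 and 880 bases for Hspa1a.

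**Figure D5:**
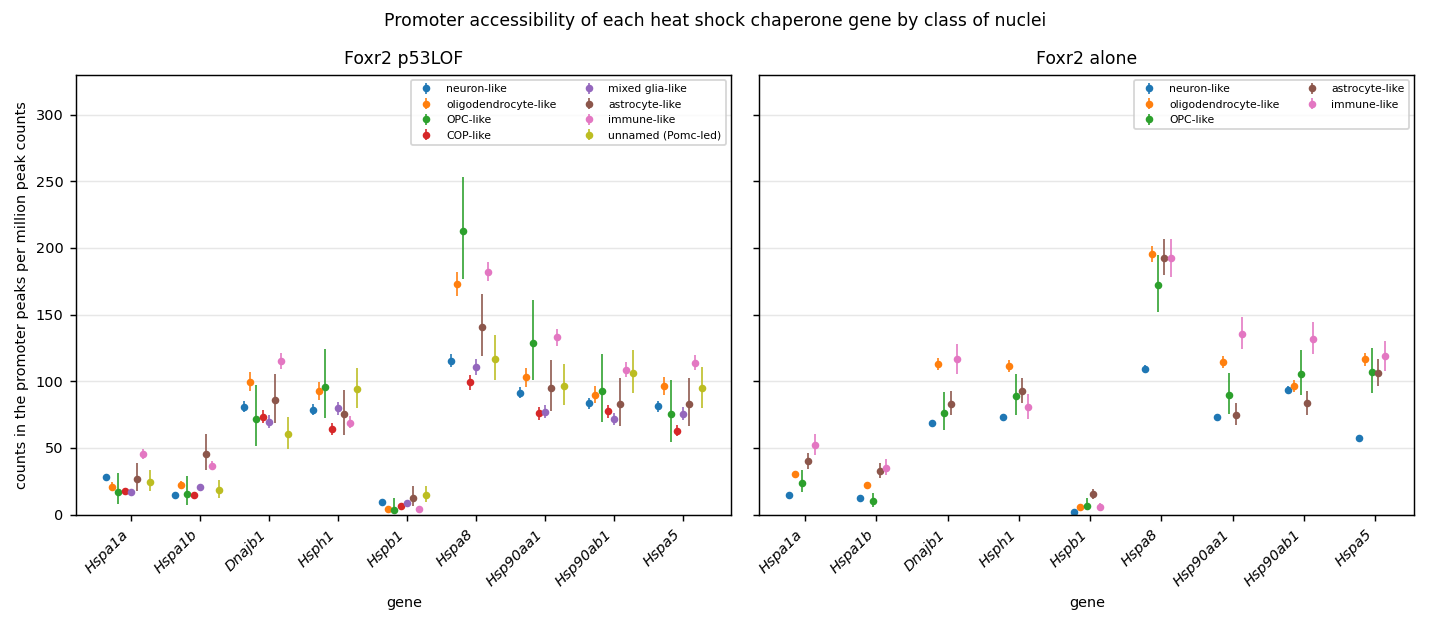
Counts in the promoter peaks of each chaperone in CPM of the counts in peaks, by class and library, with exact 95% Poisson intervals. Hspa1a lies highest in immune-like nuclei of both libraries, at 45.2 and 52.3.

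Over the 8 classes of Foxr2 p53LOF the highest promoter value was between 1.5-fold (Hsph1) and 4.28-fold (Hspb1) the lowest, with 2.69-fold for Hspa1a and 3.15-fold for Hspa1b. The extremes were immune-like and mixed glia-like nuclei for Hspa1a, astrocyte-like (45.7) and neuron-like nuclei (14.5) for Hspa1b, and Pomc-led (14.6) and OPC-like nuclei (3.42, from 2 counts) for Hspb1. The Hspb1 value of Foxr2 p53LOF sums the peak over the start (914 bases) and a second peak within 1000 bases (802 bases) that was not called in Foxr2 alone, and that of Hsp90ab1 sums a second peak beside the start in both libraries (502 and 853 bases). In the 39 nuclei rich in the pair, promoter counts were close to those expected from their clusters, 1.02-fold for Hspa1a (0.568 to 1.68, 15 counts) and 1.40-fold for Hspa1b (0.845 to 2.19, 19 counts). None of the 9 promoters had an interval that left out 1-fold there, from 0.698-fold for Dnajb1 (0.468 to 1.003) to the 1.40-fold of Hspa1b.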

How the data were processed

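The authors processed the Multiome libraries with Cell Ranger ARC 2.0.0, per library, on mm10 with vector sequences added, and deposited raw counts of UMIs per gene and of transposition events per peak for each barcode, with the gene starts and peaks beside them. Nuclei were kept at 5% mitochondrial UMIs or less and 400 genes and 400 fragments or more, with the study's upper limits. Doublets were simulated (expected 8%, 447 and 460 removed). Counts were scaled to 10000, and 2000 variable genes without the 9 chaperones and the lists, 30 components and 20 neighbours gave clusters (Leiden, resolution 0.5). A cluster was named when its markers were at a median log2 of 1 or more over the 25th percentile of all clusters, with at least 3 markers past 2-fold. This rule was set after the clusters were seen. A cluster lost its name where its median UMIs lay far under its library's and none of those markers was among its 10 leading genes. The genes, lists and markers were chosen with earlier results of these data known. Named genes were the 9 members and, of each list, the 3 with the largest log2 ratio at 10 CPM or more. Those named in the nuclei rich in the Hspa1 pair were chosen after their values were seen. Sums of a class gave CPM with exact 95% Poisson intervals, ratios the exact interval of 2 Poisson counts, and against 0 UMIs a floor of 3 counts over the class. Kept nuclei had 589 to 41887 and 498 to 17196 UMIs. The statistics were tested on simulated data. Promoter sequences came from RefSeq on the same build, and the search for alike genes used clusters with 50 nuclei or more. Python 3.11.15, scipy 1.17.1, scikit-learn 1.9.0 and leidenalg 0.10.2 were used. The alternatives changed limits on nuclei, doublets, resolution, scaling, low values, thinning, depth bounds and peak windows.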

Additional observations from a re-analysis of the deposited data

Results flagged for a closer look

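Ratios of the Hspa1 pair between genotypes had opposite signs in different classes. On the log2 scale, Hspa1a in Foxr2 p53LOF against Foxr2 alone stood at 2.74 in astrocyte-like and 3.99 in immune-like nuclei, but -2.17 in neuron-like nuclei. For Hspa1b it was 5.02 in astrocyte-like and -1.51 in neuron-like nuclei. With the counts of 1 library of each genotype analysed here, the difference between classes was not tested, and the astrocyte-like values rest on 1 nucleus.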

How the results depend on the processing

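No paired analysis was possible because the counts of 1 library of each genotype were analysed here and no test was made. The Hspa1a log2 ratio in astrocyte-like nuclei turned from 2.74 to -1.73 with the fragment limits applied to undivided peak counts. It was at -1.72 (-7.19 to 1.18) without its richest nucleus. Without nuclei rich in the Hspa1 pair it was at -1.89 (-7.34 to 0.97), from 1 against 9 UMIs. These last 2 intervals included 0, so no direction is given by them. No count moved at resolution 1.0, with totals without mitochondrial genes, Malat1 and the members, at depth bounds of 3000 and 6000, or at peak windows of 200 and 2000 bases. With undivided peak counts, genes past 2-fold between genotypes numbered 1 higher in neuron-like and 1 higher and 1 lower in astrocyte-like nuclei, and 1 was higher in shallow neuron-like nuclei of Foxr2 alone. With doublets kept, 3 were lower in neuron-like nuclei, and with a minimum of 10 CPM 2 were lower there and 0 in oligodendrocyte-like nuclei. With minimums of 1000 genes and peak counts, 5 were lower in oligodendrocyte-like nuclei, and 0 were higher and 1 lower in shallow immune-like nuclei, where few shallow nuclei are left by construction. With the pair summed 1 was higher in immune-like nuclei, and scaled by the median of ratios 2 were lower in shallow neuron-like nuclei of Foxr2 alone. Chosen after seeing the data, a mitochondrial share of at most 0.3% left 1 higher and 1 lower in astrocyte-like nuclei and 2 higher in shallow immune-like nuclei, and leaving out the richest nucleus left 0 higher and 1 lower in astrocyte-like nuclei, 2 higher in shallow immune-like nuclei and 1 lower in shallow astrocyte-like nuclei of Foxr2 alone. Leaving out nuclei rich in the pair left 1 higher and 1 lower in astrocyte-like, 1 higher in immune-like and 2 higher in shallow immune-like nuclei. Where not stated, the cause was not tested. Shares of nuclei with a UMI moved with thinning in 105 of 135 cases. Of the ranges of promoter values over classes, 9 moved and 9 did not when scaled to the counts in all promoter peaks. Outside the classes named, Hspb1 and the pair had few UMIs, and the part of depth in this was not tested.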
